A study of Mus musculus with 8 samples.

Results

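*Etv1*, *Etv4* and *Etv5* were followed in ventricles of mouse embryos at E9.5. They are the 3 genes of the PEA3 subfamily of ETS transcription factors, and they were taken by gene symbol as 3 of the 53465 genes in the expression table. All 3 passed the filter on low counts and were among the 14451 genes tested. Polyadenylated RNA of heart ventricles was sequenced in 60-base single reads in 4 wild-type (WT) samples and in 4 samples of the genotype Nrg-1flox;Tie2-Cre, called the mutant here. The mutant carries a conditional allele of *Nrg1*, the gene for neuregulin-1, together with Tie2-Cre, a driver active in endothelial cells, which include the endocardium, and also in blood cells. The labels do not say whether the WT samples carry Cre or the unrecombined conditional allele, or whether 1 sample holds 1 embryo or several, so the p-values measure the spread between these samples. Total counts per sample ranged from 11852372 to 14360323 in WT and from 12430368 to 14223860 in the mutant.

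PEA3 proteins bind DNA through the ETS domain and activate transcription when receptor tyrosine kinases such as the ERBB and FGF receptors signal through RAS and the kinase ERK. Their genes are widely used as readouts of this signalling, because their transcription follows it. In the embryonic heart, the endocardium releases neuregulin-1, which acts on ERBB2 and ERBB4 in the myocardium during trabeculation. *Etv1* is known as a factor of rapidly conducting myocardium, and *Etv4* and *Etv5* as FGF-responsive genes of the pharyngeal and outflow region and of many epithelia.

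In the GRCm38 annotation, *Etv1* (ENSMUSG00000004151) occupies chr12:38779380-38870484 and is read from the plus strand. *Etv4* (ENSMUSG00000017724) occupies chr11:101769742-101785371 and *Etv5* (ENSMUSG00000013089) chr16:22381309-22439719, both read from the minus strand. No other annotated gene overlaps any of the 3, on either strand. Their longest coding sequences have 1431, 1458 and 1584 bases, and the aligned bases of each pair are 68.1% to 71.7% identical. Because the family is alike in sequence, it was checked whether reads could be taken for those of another member. Of all stretches of 60 bases, the read length, 0 were shared between annotated transcripts of different members, and the longest shared stretch had 23 bases. The 60 coding bases in which the members are most alike lie in the ETS domain, in exons 12 and 13 of each transcript, and are shown to make this visible. Capitals mark the 50 bases that all 3 share. The window lies between chr12:38861362-38865580 in *Etv1*, chr11:101770558-101770995 in *Etv4* and chr16:22383659-22386783 in *Etv5*, with an intron inside each span.

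Etv1: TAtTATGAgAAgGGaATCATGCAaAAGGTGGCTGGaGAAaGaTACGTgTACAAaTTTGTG
Etv4: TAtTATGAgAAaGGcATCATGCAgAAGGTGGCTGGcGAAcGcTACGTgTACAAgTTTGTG
Etv5: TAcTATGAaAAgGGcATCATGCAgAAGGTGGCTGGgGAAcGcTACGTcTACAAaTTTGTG

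Even here, *Etv1* and *Etv4* differ at 7 bases, *Etv1* and *Etv5* at 8, and *Etv4* and *Etv5* at 6.

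The deleted gene was examined first. *Nrg1* counts were 156, 131, 121 and 173 in WT and 61, 59, 71 and 72 in the mutant. Every mutant library held less than every WT library, and the gene-level counts do not part the deleted exons from the others. The log2 fold change was -1.07 (standard error 0.14, adjusted p = 0.00268). Here and throughout, an adjusted p with no other tool named comes from the quasi-likelihood fit of edgeR over all genes tested, after Benjamini and Hochberg.

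All 3 PEA3 genes were lower in the mutant, with a mean CPM 34.6% under that of WT for *Etv1*, 46.9% for *Etv4* and 41.8% for *Etv5*. Across the whole table, 8.62% of the genes tested passed an adjusted p of 0.05, and 3.5% passed it as lower and 5.11% as higher, beside 3 of 3 members lower. The family was chosen with earlier results of these data known, so this count is not independent evidence. Levels are given as CPM, the count divided by a library size that TMM normalization sets on a common scale across samples. The groups did not overlap for any member, with every mutant sample lower. Of all genes tested, 9.45% showed no overlap in that direction and 9.52% in the other.

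*Etv5*, the member with the most reads, also had the smallest standard error of its fold change. Its counts were 618, 666, 689 and 667 in WT and 316, 381, 447 and 338 in the mutant. In CPM these were 47.2, 47.7, 56.6 and 45.1 in WT and 26.8, 27.6, 32.2 and 27.9 in the mutant. The lowest WT library was 1.40 times the highest mutant library, and within each genotype replicate 3 was the highest. The mean fell from 49.2 ± 5.11 to 28.6 ± 2.41 CPM (SD, n = 4 each). The log2 fold change was -0.78 (standard error 0.09, 95% confidence interval -0.98 to -0.58, edgeR adjusted p = 0.0018), and by its p-value *Etv5* ranked 44 of the 14451 genes.

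*Etv4*, the founding member of the subfamily, had the fewest reads and the fold change farthest from 0. Its counts were 183, 158, 144 and 161 in WT and 76, 68, 105 and 80 in the mutant. In CPM the WT libraries held 13.98, 11.3, 11.8 and 10.9 and the mutant libraries 6.44, 4.92, 7.55 and 6.59. The lowest WT library was 1.44 times the highest mutant library. The mean fell from 12.003 ± 1.37 to 6.38 ± 1.09 CPM (SD, n = 4 each). The log2 fold change was -0.91 (standard error 0.15, 95% confidence interval -1.24 to -0.58, edgeR adjusted p = 0.00575).

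*Etv1* had the fold change nearest to 0 of the 3, and its call was the least firm. Its counts were 242, 211, 205 and 274 in WT and 176, 159, 131 and 112 in the mutant. In CPM the WT libraries held 18.5, 15.1, 16.8 and 18.5 and the mutant libraries 14.9, 11.5, 9.42 and 9.23. The groups came close to each other, since mutant replicate 1 lay only just under WT replicate 2, and the lowest WT library was 1.01 times the highest mutant library. The mean fell from 17.2 ± 1.62 to 11.3 ± 2.64 CPM (SD, n = 4 each). The log2 fold change was -0.62 (standard error 0.16, 95% confidence interval -0.96 to -0.27, edgeR adjusted p = 0.0383).

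**Figure D1:**
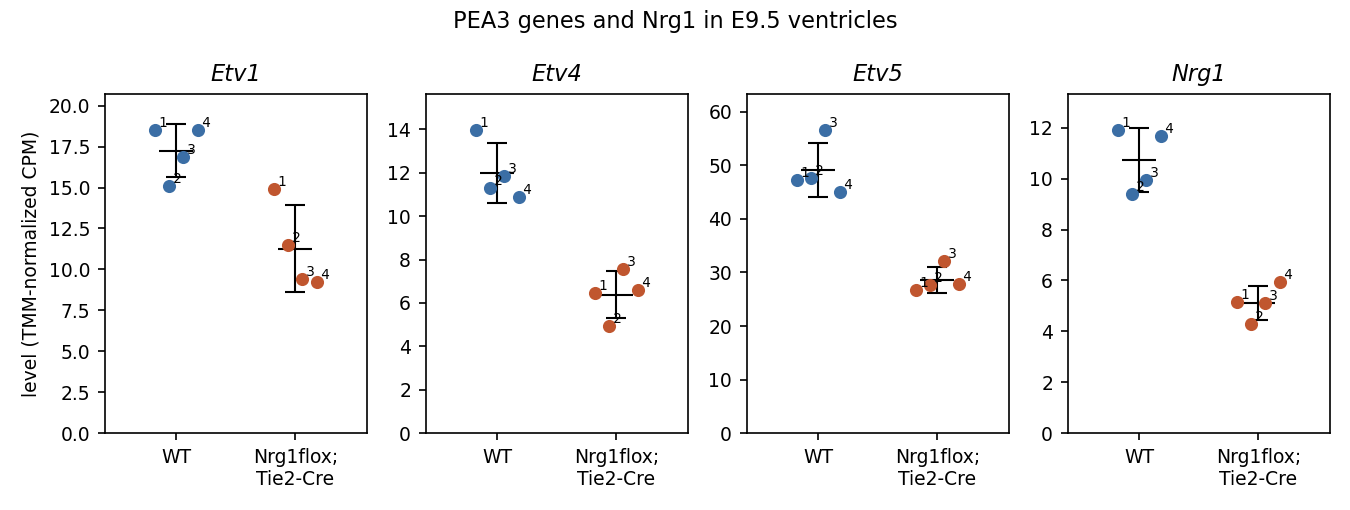
Level of *Etv1*, *Etv4*, *Etv5* and *Nrg1* (vertical axes, TMM-normalized CPM, from 0) in the 4 WT and 4 mutant samples; each point is 1 sample with its replicate number, and the bars give the mean and SD. In each panel every mutant sample lies under every WT sample, with the narrowest gap for *Etv1*, where mutant replicate 1 is at 14.9 and WT replicate 2 at 15.1.

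The *Etv1* call depended on which samples entered the fit. Mutant replicate 1 stood apart from the other mutants, with 6.26% of its counts in hemoglobin genes against 1.93%, 3.80% and 3.89%, and 0.671% to 0.799% in WT. Without it, the log2 fold change of *Etv1* was -0.78 and the adjusted p 0.00198. Leaving out any one of the other 7 libraries took *Etv1* over the threshold, with log2 fold changes from -0.67 to -0.53 and an adjusted p of up to 0.116 (edgeR in each case). *Etv4* and *Etv5* passed in all 8 of these fits, at -1.005 to -0.79 and at -0.84 to -0.71. A covariate for the mean level of 4 Y-linked genes, whose summed level ran from 20.6 to 113 CPM over the samples, also left *Etv1* short of the threshold (-0.64, adjusted p = 0.0791), but not *Etv4* (-1.01, adjusted p = 0.0107) or *Etv5* (-0.77, adjusted p = 0.0081). With the level of erythroid genes as a covariate, which does not overlap between the genotypes and cannot be told apart from them, the values were -0.88, -1.49 and -0.82 for *Etv1*, *Etv4* and *Etv5*, and none passed (adjusted p of 0.598, 0.474 and 0.511).

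**Figure D2:**
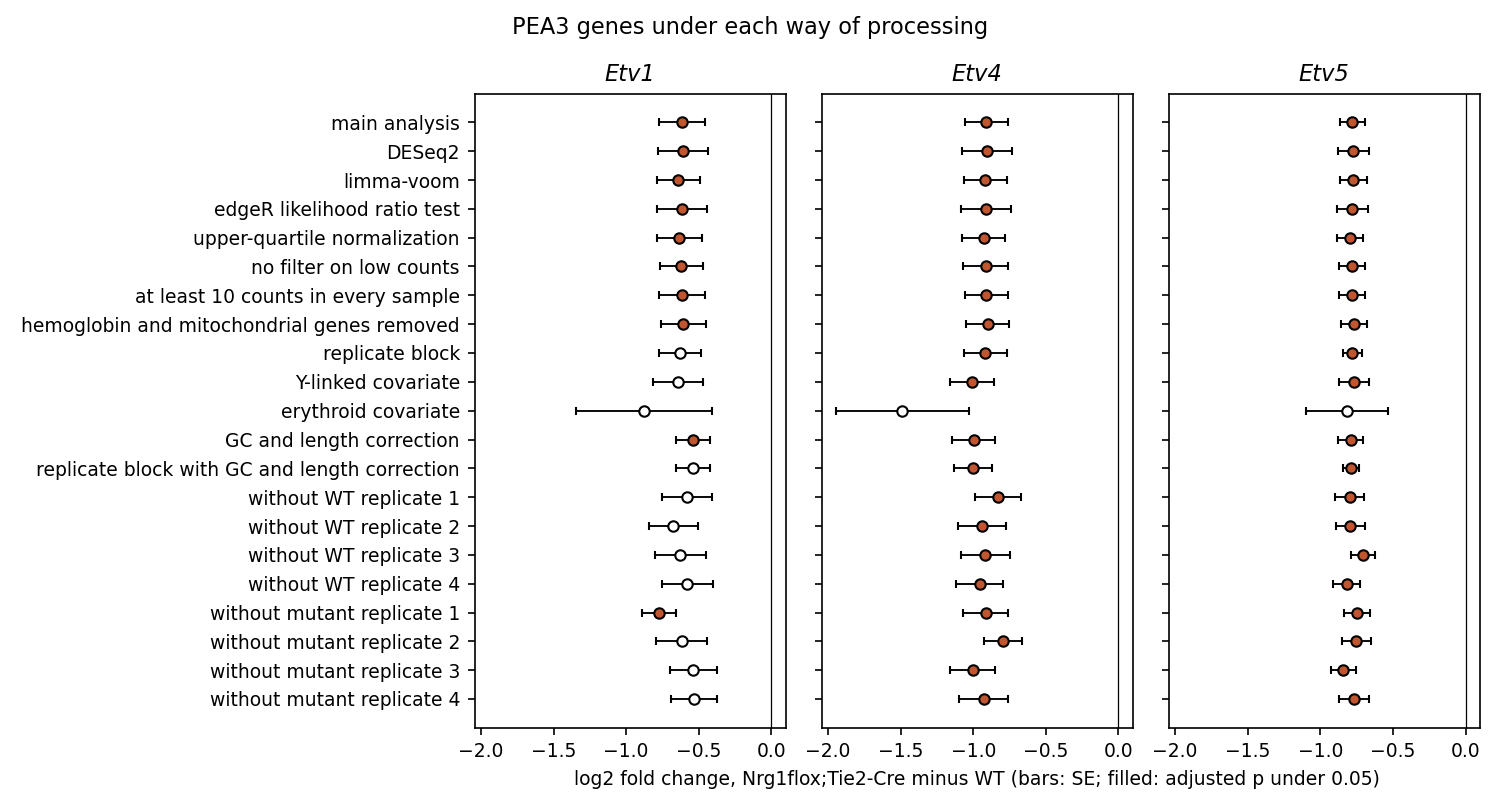
Log2 fold change of each PEA3 gene (horizontal axes, mutant minus WT, bars are standard errors) in the main analysis and under each alternative, 1 per line; filled points have an adjusted p under 0.05. All points lie under 0, and *Etv4* and *Etv5* are open only with the erythroid covariate, whereas *Etv1* is open in 11 of 20 alternatives.

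No pair of members passed a test for a difference between their falls. The log2 ratio of each pair of members was compared between genotypes over the 8 samples, for 3 pairs. The log2 ratio of *Etv4* to *Etv1* was -0.52 ± 0.17 in WT and -0.80 ± 0.47 in the mutant (SD, n = 4 each), a difference of -0.28 with a standard error of 0.25. The exact permutation p was 0.371, two-sided over 70 relabellings whose smallest possible p is 0.0286. For *Etv5* against *Etv1* the difference was -0.15 (standard error 0.23, exact permutation p = 0.514), and for *Etv5* against *Etv4* it was 0.13 (standard error 0.14, exact permutation p = 0.429). Adjusted over the 3 pairs, each p was 0.514. Each difference was smaller than its standard error or only slightly larger, which does not show that the members fell alike.

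Levels of different genes can be compared only per length, and the union of the *Etv1* exons is longer than any of its transcripts. Over the union of annotated exons, with 13296 bases for *Etv1*, 3104 for *Etv4* and 4103 for *Etv5*, the WT level in RPKM, the CPM per kilobase of exon, was 11.98 ± 1.24 for *Etv5*, 3.87 ± 0.44 for *Etv4* and 1.297 ± 0.12 for *Etv1* (SD, n = 4). The order *Etv5*, *Etv4*, *Etv1* was the same in all 8 samples, and the ranges of neighbours in WT did not overlap. *Etv5* made up 69.8% ± 2.94 of the summed RPKM of the family in WT and 70.6% ± 2.57 in the mutant (SD, n = 4 each). *Etv4* made up 22.6% ± 2.38 and 20.7% ± 2.32, and *Etv1* 7.60% ± 0.96 and 8.66% ± 2.29. The *Etv1* share in WT was 13.2% with the length of the longest transcript and 15.7% with the mean length of the transcripts listed in the table. The family total was 17.1 ± 1.32 RPKM in WT and 9.87 ± 0.77 in the mutant, while each share moved by less than the larger of its SDs. The place of *Etv5* did not depend on the length used. With the mean length of the transcripts listed in the table, which is 2417.2 bases for *Etv1* and 1087.6 for *Etv4*, *Etv1* was at 7.13 RPKM in WT and *Etv4* at 11.04, and *Etv1* came above *Etv4* in mutant replicates 1 and 2. The order of these 2 therefore rests on the gene model. In WT, 71.9% of the genes tested had a lower RPKM than *Etv5*, 43.1% a lower one than *Etv4* and 22.2% a lower one than *Etv1*.

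From sample to sample within a genotype, no pair of members passed a test for rising and falling together. Log2 CPM values were centred on the genotype mean, since a correlation over both groups would only restate their difference. Over the 8 samples, *Etv5* and *Etv4* had a Pearson r of 0.36 (exact permutation p = 0.38, Spearman rho 0.33, p = 0.425), which became 0.11 without the 2 samples farthest from the median of *Etv5*. *Etv4* and *Etv1* had r = -0.19 (exact permutation p = 0.783, rho -0.33, p = 0.51) and 0.12 without the 2 farthest samples. *Etv5* and *Etv1* ran against each other in rank, with rho -0.81 (exact permutation p = 0.0139, adjusted p = 0.0417 over 3 pairs), but r was -0.46 (exact permutation p = 0.273, adjusted p = 0.57) and -0.67 without the 2 farthest samples. WT replicate 3 and mutant replicate 3, where *Etv5* was highest, were among the lower libraries for *Etv1*. Mutant replicate 1, where *Etv1* was highest, had the lowest *Etv5* of the mutants.

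**Figure D3:**
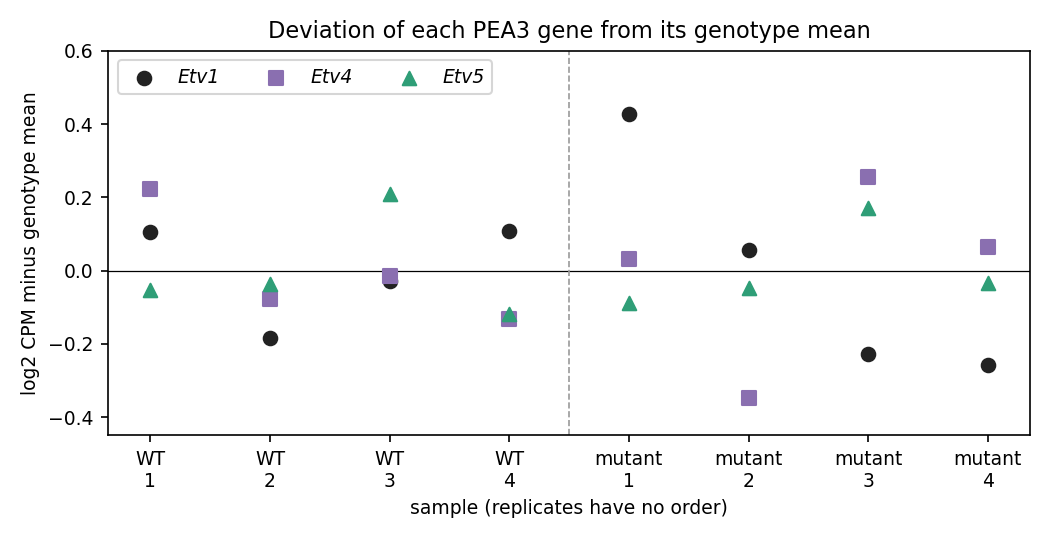
Deviation of *Etv1*, *Etv4* and *Etv5* (vertical axis, log2 CPM minus the mean of the genotype) in each of the 4 WT and 4 mutant samples. *Etv1* has the widest spread, up to 0.43 in mutant replicate 1, and *Etv5* stays between -0.12 and 0.21.

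The genes whose deviations over the 8 samples were most like those of each member were sought among genes with a mean of at least 10 CPM. For *Etv1* they were *Ap4b1* (r = 0.99), *Ptpn4* (0.99) and *Bin1* (0.98), for *Etv4* *Cbr1* (0.93), *Eif4a-ps4* (0.92) and *Fbxw2* (0.91), and for *Etv5* they included *Vkorc1l1* (0.95) and *Sipa1l3* (0.94). *Etv5* ranked 1614 of 9763 genes by likeness to *Etv4*, and *Etv1* ranked 8851 of 9762 by likeness to *Etv5*. All values share the same 8 libraries, and they are given as a description only.

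The other ETS genes did not pass the test. Of 23 other ETS genes in the list, 17 were tested and 0 had an adjusted p under 0.05 with edgeR, with 3 higher and 1 lower at an unadjusted p under 0.05. Over all genes tested, 13.1% were higher and 11.9% lower at that unadjusted threshold, so 4 of 17 is near the share over all genes. DESeq2 called 1 of them, as higher, where it called 7.44% of all genes higher and 5.39% lower. The likelihood ratio test of edgeR called 2, as higher, where it called 6.23% of all genes higher and 4.1% lower, and limma-voom called 0, where it called 4.68% higher and 3.61% lower. Their median log2 fold change was -0.02, against -0.0014 over all genes tested. Per length, the most abundant in WT were *Erf*, an ETS repressor that ERK exports from the nucleus, at 19.99 RPKM, *Gabpa* at 15.6, *Elf4* at 11.7 and *Etv6*, another repressor, at 10.98. Their mutant means were 23.4, 15.4, 11.8 and 10.2 RPKM. *Etv5* had rank 3 among the ETS genes in WT, close to *Elf4*, and at 6.97 RPKM was below all 4 in the mutant. The largest differences among the other ETS genes were those of *Spi1*, the PU.1 factor of myeloid cells, at 1.14 (adjusted p = 0.0549), *Elf1* at 0.45 (adjusted p = 0.0716), *Etv2*, a factor of endothelial and blood progenitors, at -0.38 (adjusted p = 0.305), and *Elk4* at 0.24 (adjusted p = 0.122), each with edgeR. *Elf1* passed without mutant replicate 1 (0.30, adjusted p = 0.043), without mutant replicate 2 (0.53, adjusted p = 0.044), with the GC and length correction (adjusted p = 0.0355) and with that correction and the replicate block (adjusted p = 0.0444), and *Spi1* passed without mutant replicate 2 (1.303, adjusted p = 0.0352). A test of the PEA3 genes against the other ETS genes was not made.

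**Figure D4:**
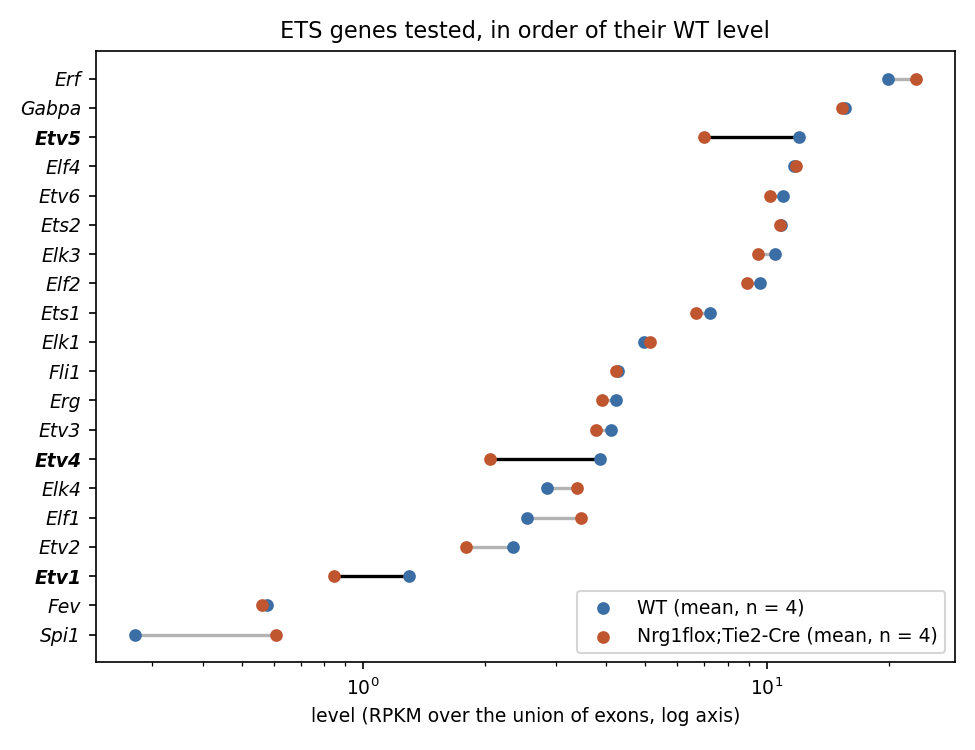
Mean level of the 20 ETS genes tested (horizontal axis, RPKM over the union of exons, log scale) in WT and in the mutant (n = 4 each), ordered by WT level; PEA3 genes are in bold with black connecting lines. *Etv5*, *Etv4* and *Etv1* lie lower in the mutant, at 6.97, 2.05 and 0.85 RPKM.

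The signalling genes were read from the ligands downwards. All lists together, with the other ETS, reported target and conduction genes, held 122 genes other than the members, of which 101 were tested and 11 passed, 10 lower and 1 higher, where 8.62% of all genes passed. Of the 10 lower, 5 were in the conduction and trabecular list and 1 was *Nrg1* itself. Beside 3.5% of all genes, 2 of 11 ligands tested were lower. They were *Nrg1* itself and *Fgf10*, an FGF of the second heart field, whose log2 fold change was -1.07 (standard error 0.21, edgeR adjusted p = 0.0148) with 78 to 114 counts in WT and 24 to 55 in the mutant. *Fgf10* did not pass without WT replicate 4 (adjusted p = 0.0542), with the replicate number as a block (-1.09, adjusted p = 0.0551) or with that block and the GC and length correction (adjusted p = 0.0591). *Fgf9*, an epicardial and endocardial ligand, was at -0.57 (adjusted p = 0.0771) and *Fgf1* at -0.71 (adjusted p = 0.129) without passing. Of 9 receptors tested, 0 passed with edgeR, with 1 lower at an unadjusted p under 0.05, and DESeq2, limma-voom and the likelihood ratio test also called 0. The log2 fold change was 0.18 for *Erbb2*, -0.23 for *Erbb4* (adjusted p = 0.321) and -0.22 for *Fgfr1* (adjusted p = 0.174), and *Egfr* and *Met* were at 0.38 and 0.29. *Erbb4*, a receptor of neuregulin-1, was at -0.37 without mutant replicate 1 and then passed (adjusted p = 0.018), and at -0.12 without mutant replicate 4 (adjusted p = 0.568). *Fgfr1* was at -0.14 without mutant replicate 1 and at -0.29 without mutant replicate 2, where it passed (adjusted p = 0.0464). *Egfr* was at 0.23 without mutant replicate 2 and 0.57 without mutant replicate 3, and *Met* at 0.087 without mutant replicate 1 and 0.45 without mutant replicate 4, none of them passing. Of 19 adaptors, RAS genes and kinases of the core cascade, 0 passed with any of these 4 tests, with 3 higher and 3 lower at an unadjusted p under 0.05 with edgeR, where 13.1% of all genes were higher and 11.9% lower. The largest values among them were 0.28 for *Map2k2*, which encodes MEK2, 0.26 for the scaffold gene *Ksr1*, 0.25 for *Frs3* and 0.19 for *Frs2*, the last 2 being adaptor genes of FGF receptors. Without mutant replicate 1, *Frs2* was at 0.073, and *Ksr1* (0.18, adjusted p = 0.0347) and *Map2k2* (0.37, adjusted p = 0.00774) passed.

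Feedback inhibitors and early targets of ERK signalling were the next list. Of 18 tested, 3 were lower and 1 was higher, beside 3.5% of all genes lower and 5.11% higher. *Spry4*, a Sprouty inhibitor, fell from 17.3 ± 2.61 to 7.33 ± 1.95 CPM (SD, n = 4 each), a log2 fold change of -1.24 (standard error 0.18, edgeR adjusted p = 0.00375). *Spred1*, which encodes an inhibitor of RAS activation, was at -0.45 (adjusted p = 0.00996) and *Spry2* at -0.41 (adjusted p = 0.0361), the latter called in 9 of 20 alternatives. *Spry2* did not pass in 7 of the 8 fits that left out 1 library, with the Y-linked covariate (adjusted p = 0.0567), with the replicate block (adjusted p = 0.0533), or with that block and the GC and length correction (adjusted p = 0.0581). *Dusp6*, the gene of an ERK phosphatase, often read beside PEA3 genes, was at -0.34 (standard error 0.11, adjusted p = 0.1) and did not pass, but did without mutant replicate 1 (-0.45, adjusted p = 0.00719). *Myc*, which ERK can induce but which many growth signals also raise, was higher at 1.21 (standard error 0.13, adjusted p = 0.00162), and was at 0.16 with the erythroid covariate (adjusted p = 0.753). *Ier3* and *Fos*, immediate early genes, were at 2.14 (adjusted p = 0.0925) and 0.52 (adjusted p = 0.444). Without mutant replicate 1, *Ier3* was at 0.85 (adjusted p = 0.0658) and *Fos* at -0.05. DESeq2 and the likelihood ratio test called 3 of the list lower and 2 higher. Over all genes, DESeq2 called 5.39% lower and 7.44% higher, and the likelihood ratio test 4.1% and 6.23%. *Ier3* was among the 2 called higher (adjusted p = 0.0496 with DESeq2 and 0.0163 with the likelihood ratio test). *Ier3* also passed with no filter on low counts (adjusted p = 0.0324). The median over the 18 was -0.15. Without mutant replicate 1, 7.89% of all genes passed as lower and 9.35% as higher, more than with all samples. In that fit, 7 of the 18 were lower, above the 7.89% of all genes, and 1 was higher. The list was chosen with earlier results of these data known. In the same fit 1 receptor gene, *Erbb4*, was lower and 1 higher. Of the core genes 2 of 19 were higher, and of the other ETS genes 2 of 17, both near the share over all genes. The 1 reported PEA3 target that was lower in that fit is *Dusp6*, which is in both lists.

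The genes that control the PEA3 factors themselves showed no call. Of 10 tested, including *Cic*, whose protein Capicua represses PEA3 genes until ERK relieves it, and *Cop1* and *Det1*, which belong to the ubiquitin ligase that degrades PEA3 proteins, 0 passed with edgeR, with 3 higher at an unadjusted p under 0.05, where 13.1% of all genes were higher. DESeq2 called 2 of them as higher, beside 7.44% of all genes, and limma-voom and the likelihood ratio test called 0. *Cic* was at 0.17 (adjusted p = 0.108), *Det1* at 0.31 (adjusted p = 0.106), *Ddb1* at 0.12 (adjusted p = 0.135) and *Trib2* at -0.26 (adjusted p = 0.22). Of 8 reported PEA3 targets tested, 0 passed with these 4 tests, with 1 lower at an unadjusted p under 0.05 with edgeR, where 11.9% of all genes were lower. *Cxcr4* was at -0.50 (adjusted p = 0.222), *Met* at 0.29, *Myb* at 0.73 and *Vegfa* at 0.88 (adjusted p = 0.207), with *Vegfa* counts of 1222 to 4582 in the mutant and 1247 to 1356 in WT. Without mutant replicate 1, *Vegfa* was at 0.17 (adjusted p = 0.179) and *Trib2* at -0.14 (adjusted p = 0.157).

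**Figure D5:**
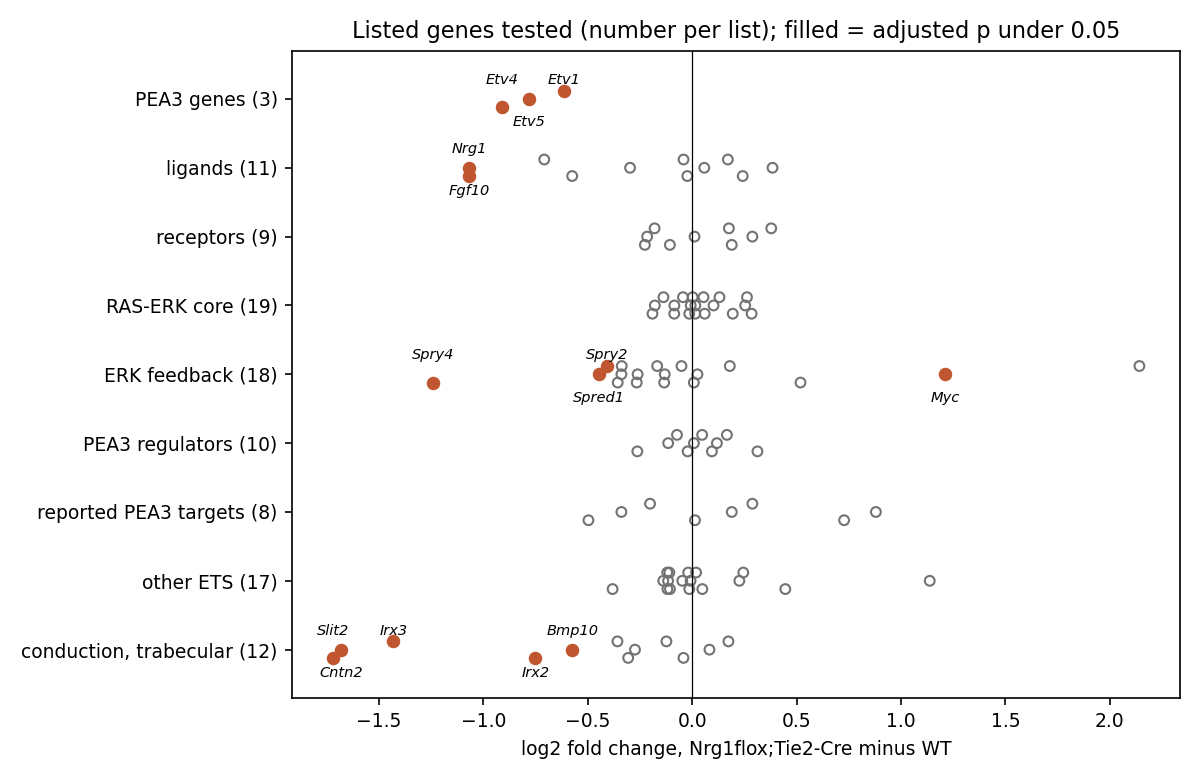
Log2 fold change (horizontal axis, mutant minus WT) of each listed gene tested, by role, with the number tested beside each list; filled points have an adjusted p under 0.05 and carry their names. Receptors, core cascade, PEA3 regulators, reported targets and other ETS genes show 0 filled points, whereas *Spry4* is at -1.24 in the feedback list and *Slit2* at -1.72 in the conduction and trabecular list.

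Among 12 conduction and trabecular genes, 5 were lower and 0 higher, beside 3.5% of all genes lower and 5.11% higher. The median log2 fold change of the 12 was -0.33. *Slit2* was at -1.72, *Cntn2*, a Purkinje fibre marker with 3 to 8 counts in the mutant, at -1.68, *Irx3* at -1.43, *Irx2* at -0.75 and *Bmp10* at -0.57, with an adjusted p of up to 0.0159 with edgeR. *Bmp10* did not pass without WT replicate 1, 2 or 3, without mutant replicate 4 or with the Y-linked covariate (-0.53, adjusted p = 0.0569), which left 4 of the list lower, beside 1.47% of all genes lower and 2.71% higher. Without mutant replicate 1, 5 were lower and 1 higher, beside the 7.89% and 9.35% of all genes in that fit. With the erythroid covariate 0 of the listed genes passed with edgeR, where 1269 of all genes had an unadjusted p under 0.05, and *Irx3* was at -0.52 and *Slit2* at -1.13. Among genes reported to depend on ETV1 in conducting myocardium, *Gja5* was at -0.36 (adjusted p = 0.377) and *Nkx2-5* at 0.08 (adjusted p = 0.75). The list was drawn up with earlier results of these data known, so its count is not independent evidence of its direction.

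Markers of other cells were read beside the PEA3 values, because in bulk samples fewer cells of a type and less RNA per cell cannot be told apart. The 12 cardiomyocyte markers summed to 36653 to 38865 CPM in WT and 34757 to 38155 in the mutant. With edgeR 0 of 12 passed, with 2 lower at an unadjusted p under 0.05, beside 11.9% of all genes. DESeq2 called 2 as lower, beside 5.39% of all genes. Without mutant replicate 1, 2 of the cardiomyocyte markers were higher and 1 lower, beside 9.35% and 7.89% of all genes. The 10 endocardial and endothelial markers summed to 943 to 1029 CPM in WT and 832 to 903 in the mutant. Of them 1 of 10, *Tek*, was lower, beside 3.5% of all genes. At an unadjusted p under 0.05 with edgeR 5 were lower, beside 11.9% of all genes. DESeq2 and the likelihood ratio test called 2 of these 10 as lower, beside 5.39% and 4.1% of all genes, and with the Y-linked covariate 0 passed. The 10 erythroid markers were higher in 10 of 10 cases, beside 5.11% of all genes. They summed to 6069 to 7322 CPM in WT and 17535 to 62184 in the mutant. Of the 6 epicardial markers 2 were higher, beside 5.11% of all genes, and the 6 summed to 128 to 195 CPM in WT and 198 to 331 in the mutant. The second heart field and pharyngeal markers, from a region where *Etv4* and *Etv5* answer to FGF, summed to 72.0 to 83.6 CPM in WT and 50.4 to 63.9 in the mutant. Of the 7 of them tested, 2 were lower, beside 3.5% of all genes. The 2 were *Fgf10* and *Sema3c* (-0.44, edgeR adjusted p = 0.0041). Neural crest markers, 2 of 5 of which were tested, summed to at most 6.23 CPM in any sample. Of 7 pharyngeal endoderm markers, 0 had enough counts to be tested. They summed to 0.573 to 5.92 CPM in WT and 0.434 to 0.824 CPM in the mutant. The WT maximum was in replicate 3, where *Etv5* was also highest, and whether these are linked was not tested. Without that library the log2 fold change of *Etv5* was -0.71 (edgeR adjusted p = 0.0095). No listed marker was at 0 in all samples. The endocardial, erythroid, epicardial and second heart field sums did not overlap between genotypes, and their part in the fall of *Etv1*, *Etv4* and *Etv5* was not tested.

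Start-site sequence was then examined. The RefSeq promoter table (GRCm38.p6) matched 2 of the 3 members, with 2 start sites for *Etv1* and 2 for *Etv5*, and *Etv4* was not analysed here. For each gene, the 250 bases before the start site that hold no annotated exon are shown 5′ to 3′, from chr12:38779832-38780081 on the plus strand for *Etv1* and chr16:22438369-22438618 on the minus strand for *Etv5*. Capitals mark AGGAAG, the motif after which PEA3 was named, and TGAATG, the core of the octamers that Capicua binds, each on either strand.

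Etv1: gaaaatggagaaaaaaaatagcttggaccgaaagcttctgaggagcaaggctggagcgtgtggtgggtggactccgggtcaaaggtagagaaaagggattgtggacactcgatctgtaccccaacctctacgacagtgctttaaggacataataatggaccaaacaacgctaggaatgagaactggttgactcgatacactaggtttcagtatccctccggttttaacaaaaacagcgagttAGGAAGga
Etv5: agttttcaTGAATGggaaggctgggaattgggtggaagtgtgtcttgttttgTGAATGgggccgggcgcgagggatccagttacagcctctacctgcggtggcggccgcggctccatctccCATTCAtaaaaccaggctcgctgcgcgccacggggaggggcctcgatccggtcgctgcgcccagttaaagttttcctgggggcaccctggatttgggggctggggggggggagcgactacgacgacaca

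The *Etv5* window held TGAATG 3 times, at bases -242 to -237, -198 to -193 and, on the other strand, -129 to -124 from the start site. At least 1 copy was found in 10.9% of the 32851 promoter windows of this length, and 3 or more copies in 0.131% of them. Each copy was part of TGAATGGG, which contains the shorter motif, and this was the 1 window of 32851 with 3 copies of the longer one. That longer motif was chosen after the sequence was seen. The octamers TGAATGAA and TGAATGGA, found in 1.08% and 1.01% of windows, were not in it. The *Etv1* window held AGGAAG once, at bases -8 to -3, as 29.5% of windows did at least once, and no TGAATG. The windows before the other *Etv1* start site and the other *Etv5* start site held 0 copies of either motif. Such matches describe the letters of these windows, and no binding was measured here.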

How the data were processed

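Per the labels, RNA was isolated with the PicoPure kit and libraries were made with the NEBNext Ultra kit and sequenced on a HiSeq2500. The authors deposited expected counts per gene, estimated with RSEM 1.3.1 on GRCm38 after cutadapt (version not given in the sources used here) and not scaled for depth or length. RSEM shares ambiguous reads among genes. The aligner and strand setting are not given in the sources used here. Symbols were found for 53274 of 53465 genes. Here the expected counts were rounded and tested with edgeR 4.0.16 in R 4.3.3 (TMM, filterByExpr, quasi-likelihood test, Benjamini-Hochberg adjustment over 14451 genes, threshold 0.05). Standard errors were the fold change over the square root of F. Log2 CPM values used a prior count of 2. Lengths, exons and transcripts were taken from GENCODE M21, of the same build. Pairs of members were compared by exact permutation. The method was tested on simulated data. The alternatives tried were the likelihood ratio test of edgeR, DESeq2 1.42.0, voom of limma 3.58.1, upper-quartile scaling, other filters, removal of hemoglobin and mitochondrial genes, covariates, the replicate number as a block and each sample left out in turn. A correction for GC content and length was added after seeing the data. No replicate pair was a duplicate, since the smallest chi-square per degree of freedom between samples of a genotype was 3.74. The mutant samples were less alike than the WT samples. The value reached 6.14 between WT samples and ran from 4.64 to 52.6 between mutant samples, highest for mutant replicates 1 and 2.

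The members and lists were chosen with earlier results of these data known. Named genes are the members, *Nrg1*, listed genes that passed or were among the 4 largest changes of their list, the 4 most abundant other ETS genes, and the 3 genes most like each member, of which 1 is not reported here. *Sema3c*, *Tek*, *Erbb2*, *Cop1*, *Gja5* and *Nkx2-5* were named after their values were seen.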

Additional observations from a re-analysis of the deposited data

Results flagged for a closer look

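Among *Etv1*, *Etv4*, *Etv5*, *Nrg1* and the other listed genes named, 76 groups of 4 samples were checked for 1 sample far from the rest, and 8 were found where chance gives about 1 in 20, or 3.8. None was a PEA3 gene. Divided by the whole range of log2 CPM in the group, the distance to the next sample was 0.938 for *Trib2*, 0.887 for *Irx3*, 0.868 for *Vegfa* and 0.852 for *Spry2*, all in mutant replicate 1, with *Trib2* and *Irx3* lowest and *Vegfa* and *Spry2* highest there. It was 0.832 for *Fgf10*, lowest in mutant replicate 4. In WT it was 0.937 for *Frs3* (replicate 1, lowest), 0.912 for *Fgf1* (replicate 3, lowest) and 0.916 for *Bmp10* (replicate 4, lowest).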

How the results depend on the processing

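*Etv1*, *Etv4* and *Etv5* kept their sign in all 20 alternatives. *Etv1* lost its call with the replicate number as a block (-0.63, adjusted p = 0.0635), with the block and the GC and length correction (-0.54), with the Y-linked covariate (-0.64) and with the erythroid covariate (-0.88), and ran from -0.78 to -0.53 when 1 sample was left out. With the erythroid covariate *Etv4* (-1.49) and *Etv5* (-0.82) lost theirs too, 0 members, 0 listed genes and 0 genes in all passed (1269 at an unadjusted p under 0.05 with edgeR's quasi-likelihood test), and since that covariate does not overlap between genotypes, the 2 cannot be told apart. In that fit these values, none called before, changed sign: *Det1* -0.12, *Elf1* -0.27, *Elk4* -0.13, *Etv2* 0.18, *Fgfr1* 0.42, *Fos* -0.82, *Frs2* -0.52, *Ier3* -0.95, *Ksr1* -0.11, *Myb* -0.81, *Spi1* -0.37, *Trib2* 0.38 and *Vegfa* -1.36. Genes called numbered 616 with the block, 604 with the Y-linked covariate, 548 with the block and correction, and 509, without WT replicate 1, to 2523, without mutant replicate 1, when 1 sample was left out, against 1245, and the cause was not tested. Listed genes called ran from 9 to 22 when 1 sample was left out, with 22 without mutant replicate 1. The difference of *Etv5* from *Etv1* ran from -0.28 to 0.025 and the correlation of *Etv4* with *Etv1* from -0.43 to 0.087 when 1 sample was left out, turning positive without mutant replicate 1 and mutant replicate 3 respectively, and *Fos* ran from -0.052, without mutant replicate 1, to 0.74. The difference of *Etv5* from *Etv4* ran from 0.030, without mutant replicate 2, to 0.20, without WT replicate 3, and their correlation from 0.012, without mutant replicate 3, to 0.58, without WT replicate 3. The difference of *Etv4* from *Etv1* ran from -0.44, without mutant replicate 3, to -0.14, without mutant replicate 2, and the correlation of *Etv5* with *Etv1* from -0.64, without WT replicate 3, to -0.27, without mutant replicate 3. WT levels by longest transcript were 2.62 RPKM for *Etv1* and 5.01 for *Etv4*, and by the mean of listed transcripts 7.13, 11.04 and, for *Etv5*, 27.3. Same-numbered samples correlated at -0.03, -0.17, -0.17 and 0.09 across genes, where samples of unlike number averaged 0.02. These values cannot show whether same-numbered samples were handled together. The block kept the calls of *Etv4* and *Etv5* but not those of *Etv1*, *Fgf10* and *Spry2*. Of 697 comparisons of single named genes other than the members, 636 kept their sign and side of the threshold. *Etv4* had the fewest reads of the members, with 68 to 105 counts in the mutant, and whether depth limited its precision was not tested.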
